A study of Mus musculus with 2 samples.

Results

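Among 6818 quality-filtered cells of proliferative mouse urothelial organoids, 93 carried at least 2 unique molecular identifiers (UMIs) of the uroplakins, the membrane proteins that mark the differentiated surface of the bladder lining. These 93 cells were chosen by that sum alone: a cell of the proliferative library was kept when it had over 800 detected genes and at most 12% mitochondrial UMIs, and it was selected when its counts over Upk1a, Upk1b, Upk2, Upk3a and Upk3b added up to 2 or more. A UMI tags 1 captured RNA molecule, so that copies made during amplification are counted once. The cells made up 1.36% of the kept cells of that library (exact binomial 95% interval 1.10 to 1.67%) and were taken from 11714 kept cells in the whole series. They were compared with 930 kept cells of the same library that held no uroplakin UMI and were nearest to them in total UMIs, 10 for each.

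The organoids were cultures of wild type (WT) C57BL/6 urothelium from mice aged 8 to 10 weeks, grown in Matrigel and, by the general statement of the methods, made from unsorted cells and used at low passage. Proliferative organoids (P) stayed in complete medium, which adds EGF, Noggin, the TGF-β receptor inhibitor LY2157299 and conditioned medium with WNT3A and RSPO1. Differentiated organoids (D) were moved to medium without those 5 additions. Each condition was 1 library of the 10x Genomics 3′ v3 chemistry, so that no difference here has a replicate check, no p-value was computed, and the medium and the library cannot be told apart in any comparison of P with D.

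Uroplakins assemble in pairs. The tetraspanin Upk1a binds Upk2 and the tetraspanin Upk1b binds Upk3a, and the paired proteins travel to the apical membrane of the superficial umbrella cells, where they pack into the rigid plaques of the bladder surface. Upk3b is a relative of Upk3a that can also pair with Upk1b and is known from mesothelium as well. Basal urothelial cells, marked by Krt5, Krt14 and Trp63, lie at the other side of the epithelium, and intermediate cells in between carry Psca, Krt8 and Krt18.

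The selected cells were deeper than the typical cell of their library. They held 605788 UMIs in all, from 2338 to 23103 per cell with a median of 5224, against a median of 5222.5 in the matched cells and 3405.5 over all kept P cells. The matched cells, being more, held 5716005 UMIs in all, so that raw UMI counts set side by side below are not levels. The median number of detected genes was 1657 in the selected cells and 1572.5 in the matched cells. Mitochondrial UMIs had a median share of 7.37% against 6.12%, and ribosomal protein genes took 25.9% of the summed UMIs against 35.9%. Beyond the scaling given below that leaves those genes out of the totals, the part of either share in the gene ratios was not tested. Of the barcodes, 10 occurred in both libraries, and 0 of them belonged to a selected or a matched cell. A doublet caller, Scrublet, called 0 cells in P by its automatic threshold and so gave no usable call; of the 6% of kept cells with its highest scores, 6 were selected cells (6.45% of the 93) and 135 were matched cells (14.5% of the 930).

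The uroplakin counts per cell, which are the values the selection used, had a long thin tail. Of the kept P cells, 6515 had no uroplakin UMI, 210 had exactly 1 and lay just outside the selection, 45 had exactly 2 and lay just inside it, and 48 had 3 or more. The highest cell held 16 UMIs, and 7 cells held 10 or more. Between the 11 cells with 5 or 6 UMIs and the 7 cells with 10 or more there was no cell. With each cell thinned to 2100 UMIs, 41 of 6638 cells (0.618%, 0.444 to 0.837%) still met the minimum of 2.

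**Figure D1:**
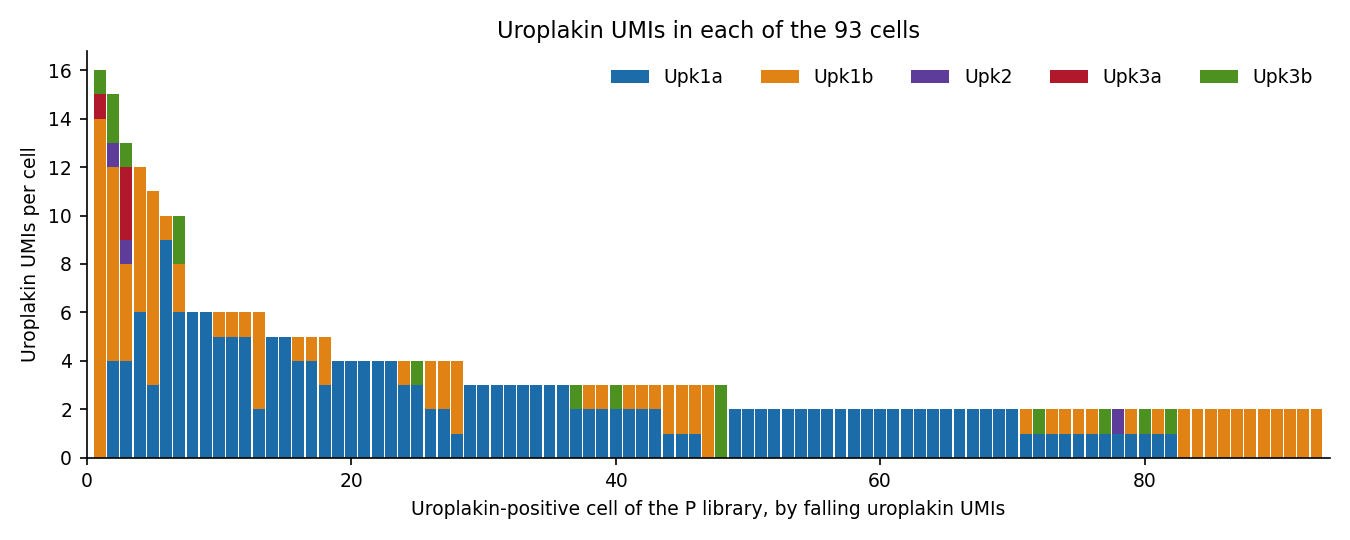
Uroplakin UMIs (vertical axis) in each of the 93 uroplakin-positive P cells (horizontal axis, ordered by falling sum), stacked by gene. Upk1a and Upk1b fill most bars, the first bar reaches 16 UMIs with 14 of Upk1b, and the long right side consists of the 45 cells with 2 UMIs.

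Upk1a and Upk1b, the tetraspanin members, supplied nearly all of the 338 uroplakin UMIs. Upk1a (ENSMUSG00000006313, GRCm38 chromosome 7, 30603092 to 30612847, minus strand) gave 210 of them, 62.1% (56.7 to 67.3%), and was detected in 79 of the 93 cells. Upk1b (ENSMUSG00000049436, chromosome 16, 38773184 to 38800328, minus strand) gave 105, 31.1% (26.2 to 36.3%), in 45 cells. Transcripts of the partner proteins were scarce. Upk2 (ENSMUSG00000041523, chromosome 9, 44452715 to 44454976, minus strand), the partner of Upk1a, gave 3 UMIs in 3 cells. Upk3a (ENSMUSG00000022435, chromosome 15, 85017141 to 85022547, plus strand), the partner of Upk1b, gave 4 UMIs in 2 cells, 3 of them in 1 cell. Upk3b (ENSMUSG00000042985, chromosome 5, 136038496 to 136046487, plus strand) gave 16 UMIs, 4.73% (2.73 to 7.57%), in 12 cells. These shares compare molecules counted at the 3′ end and are not scaled by transcript length. As counts per 1000000 UMIs (CPM), the summed levels were 347 for Upk1a (exact Poisson 95% interval 301 to 397), 173 for Upk1b (142 to 210), 26.4 for Upk3b (15.1 to 42.9), 6.60 for Upk3a (1.80 to 16.9) and 4.95 for Upk2 (1.02 to 14.5). The intervals of Upk1a, Upk1b and Upk3b did not overlap each other, whereas that of Upk3a overlapped those of Upk3b and of Upk2. Since the selection used these counts, the levels are a description only.

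The RefSeq promoters of the uroplakins at hand (GRCm38.p6, 250 bases before to 50 after the start) are shown because Upk1a was widely detected in these cells, Upk3a almost never and Upk3b in a few, and the last, that of Phgr1, belongs to the gene with the largest ratio below. No promoter of Upk1b or Upk2 was matched by symbol. Capitals mark matches on either strand to GATAA (known for binding Gata factors), TGTTT (forkhead factors), AGGTCA (the half-site of nuclear receptors), AACCGG (grainyhead factors) or TGANTCA (the AP-1 site), and no matches overlapped in these windows.
Upk1a, chr7:30612685-30612984, minus strand: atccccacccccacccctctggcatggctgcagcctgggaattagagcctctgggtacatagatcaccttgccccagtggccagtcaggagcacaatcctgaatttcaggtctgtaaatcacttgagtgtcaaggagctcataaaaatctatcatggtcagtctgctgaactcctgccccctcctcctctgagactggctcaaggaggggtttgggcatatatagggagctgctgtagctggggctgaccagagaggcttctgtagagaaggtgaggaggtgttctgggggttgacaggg
Upk3a, chr15:85016891-85017190, plus strand: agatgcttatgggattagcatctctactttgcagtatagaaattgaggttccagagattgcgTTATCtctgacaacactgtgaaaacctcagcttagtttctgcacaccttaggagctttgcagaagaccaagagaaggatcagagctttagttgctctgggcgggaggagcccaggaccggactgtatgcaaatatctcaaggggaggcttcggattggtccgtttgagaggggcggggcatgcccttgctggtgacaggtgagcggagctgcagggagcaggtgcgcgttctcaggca
Upk3b, chr5:136038246-136038545, plus strand: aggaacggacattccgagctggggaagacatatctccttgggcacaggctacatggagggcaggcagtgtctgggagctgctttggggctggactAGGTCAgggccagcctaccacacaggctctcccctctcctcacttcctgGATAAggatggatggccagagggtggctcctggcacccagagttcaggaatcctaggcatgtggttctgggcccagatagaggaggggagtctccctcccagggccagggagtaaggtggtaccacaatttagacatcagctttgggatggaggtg
Phgr1, chr2:118772524-118772823, plus strand: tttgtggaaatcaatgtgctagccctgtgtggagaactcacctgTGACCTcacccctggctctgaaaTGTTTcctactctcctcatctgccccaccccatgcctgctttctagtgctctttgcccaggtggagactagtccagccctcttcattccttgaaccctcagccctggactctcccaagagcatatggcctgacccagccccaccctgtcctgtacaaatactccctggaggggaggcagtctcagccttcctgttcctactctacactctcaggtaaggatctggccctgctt
The window of Upk1a held 0 matches, that of Upk3a 1 Gata match, that of Upk3b 1 Gata match and 1 half-site, and that of Phgr1 1 forkhead match and 1 half-site. Over 27025 promoters of the same length, 25.8% held GATAA, 50.9% TGTTT, 16% AGGTCA, 6.78% AACCGG and 7.93% TGANTCA, so that each match is common, and a window with 0 matches says only that these letters are not in it.

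Most of the 93 cells showed 1 uroplakin gene. Upk1a alone was detected in 39 cells, Upk1a with Upk1b in 29, Upk1b alone in 12 and Upk1a with Upk3b in 7. In all, 41 cells (44.1%, 33.8 to 54.8%) showed at least 2 different uroplakin genes and 4 cells (4.30%) at least 3. The cell with the most uroplakin UMIs held 14 of Upk1b, 1 of Upk3a, 1 of Upk3b and 0 of Upk1a. Another cell, with 13 uroplakin UMIs, was the only one with all 5 genes, with 4 UMIs of Upk1a, 4 of Upk1b, 1 of Upk2, 3 of Upk3a and 1 of Upk3b in a total of 3617 UMIs.

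Detection of one uroplakin went with detection of another over all kept P cells, a question that the sum used for selection does not answer. Of the 196 kept cells with an Upk1a UMI, 32 also had an Upk1b UMI (16.3%, 11.4 to 22.3%). Of 1960 cells of the same depth without Upk1a (median 4399.5 UMIs in both groups), 42 had one (2.14%, 1.55 to 2.89%). Read the other way, 32 of 121 cells with Upk1b held Upk1a (26.4%) against 55 of 1210 depth-matched cells (4.55%). Upk3b was likewise seen with Upk1a, as 10 of 196 Upk1a-positive cells held it (5.10%, 2.47 to 9.18%) against 6 of 1960 matched cells (0.306%, 0.112 to 0.665%). For Upk1b and Upk3b the intervals met, with 4 of 121 cells (3.31%, 0.908 to 8.25%) against 9 of 1210 (0.744%, 0.341 to 1.41%).

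The same minimum of 2 UMIs was met by 2181 of 4896 kept D cells (44.5%), and the make-up of their uroplakin UMIs was different. These are values that the selection used, given as a description. The 1790 D cells with 2 to 16 uroplakin UMIs, the range of the P cells, were taken, a limit chosen after the values had been seen. Within that range the D cells held more uroplakin UMIs, with a mean of 5.65 per cell against 3.63. Upk3a gave 10.5% of their 10122 uroplakin UMIs (9.93 to 11.1%) against 1.18% in the P cells (0.323 to 3.00%). Upk2 gave 3.70% (3.35 to 4.09%) against 0.888% (0.183 to 2.57%). Upk1a gave 52.0% (51.0 to 53.0%), less than in P, and Upk1b 32.8% (31.9 to 33.7%), within the interval of P. Upk3b gave 0.948% (0.769 to 1.16%) against 4.73% (2.73 to 7.57%) in the P cells. Shares of a total move together. Levels were computed over all 2181 D cells that met the minimum, not over the 1790. Upk3b stood there at 25 CPM (22.2 to 28.0) against 26.4 CPM (15.1 to 42.9) in the P cells, a difference within its counting error. Over the same 2181 D cells the level of Upk1a was 802 CPM against 347 in P, and that of Upk3a 583 against 6.60. At least 2 uroplakin genes were seen in 75.8% of the 1790 D cells (73.8 to 77.8%) against 44.1% of the P cells. In cells with exactly 2 uroplakin UMIs the shares were 47.3% of 423 D cells (42.4 to 52.2%) and 26.7% of 45 P cells (14.6 to 41.9%). With exactly 3 the intervals met, at 67.7% of 291 (62.0 to 73.0%) and 10 of 20 cells (27.2 to 72.8%).

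**Figure D2:**
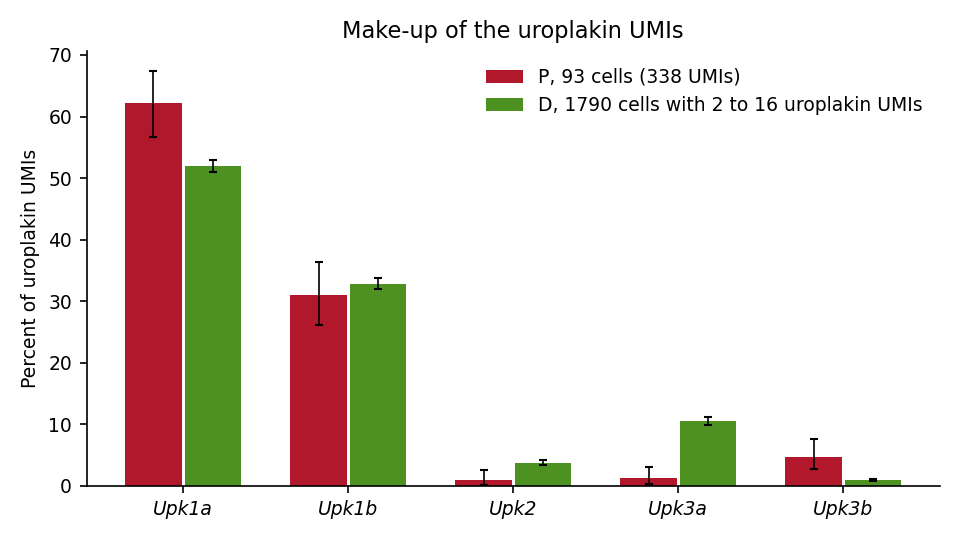
Percent of uroplakin UMIs (vertical axis) that came from each of the 5 genes (horizontal axis) in the 93 P cells and in 1790 D cells with 2 to 16 uroplakin UMIs. Error bars are exact binomial 95% intervals; the bar of Upk3a is at 10.5% in D and 1.18% in P, while those of Upk1b overlap.

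The remaining transcriptome, which the selection did not use, differed most in a short list of epithelial genes. Of 2096 genes with a mean level of at least 50 CPM over both groups, the uroplakins left out, 89 were at least 2-fold higher in the uroplakin-positive cells (4.25%) and 19 at least 2-fold lower (0.906%). Of the 89 higher genes, 43 passed the minimum only through the uroplakin-positive cells, being under 50 CPM in the matched cells. Of the 19 lower genes, 8 passed it only through the matched cells, being under 50 CPM in the uroplakin-positive cells. Counts of list genes below are to be read beside the shares of 4.25% and 0.906%. The median tested gene had a log2 ratio of 0.12, against which the ratios below are to be read. With the ratios centred on that median 69 genes were higher and 37 lower, and with mitochondrial and ribosomal protein genes out of the totals 79 were higher and 92 lower of 3187 tested, so that the balance of directions depended on the scaling. Of the 62 genes named by rule, 1 changed sign under the settings tried, namely Aldh1a3 without its richest cell. Intervals on levels, ratios and shares cover counting error only: cells of 1 library are not replicates, and the UMIs of a gene can sit in few cells.

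**Figure D3:**
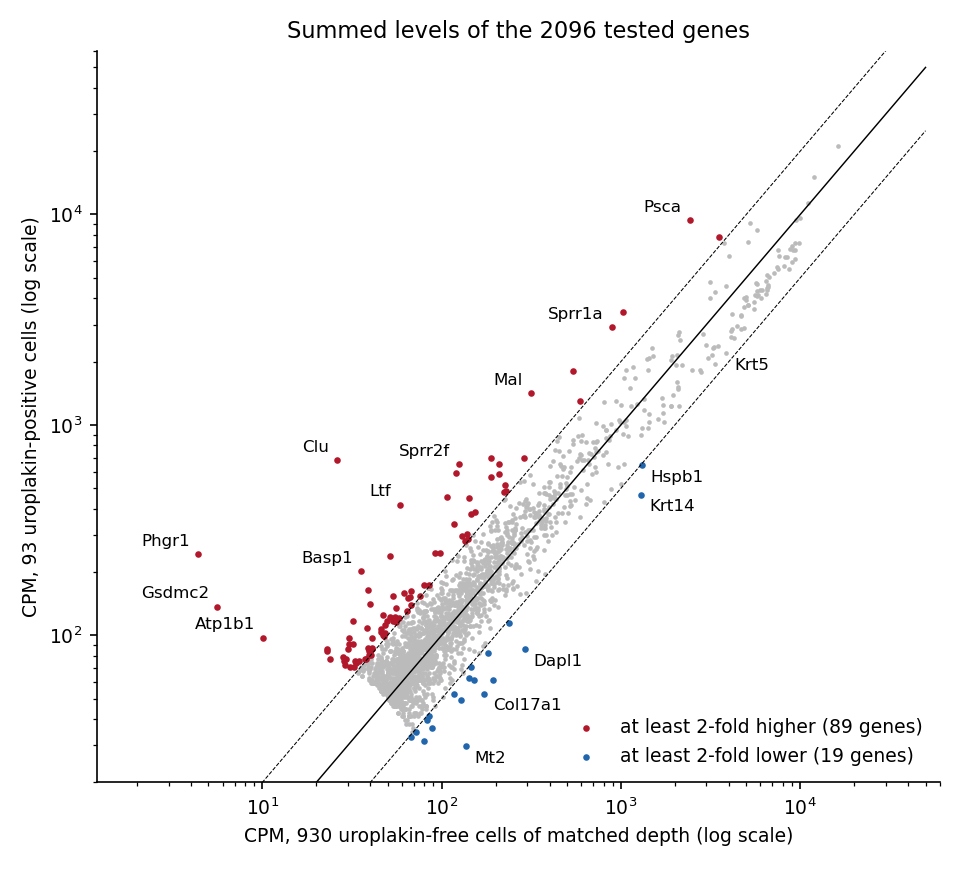
Summed level of each of the 2096 tested genes in CPM in the 930 matched uroplakin-free cells (horizontal, log scale) and in the 93 uroplakin-positive cells (vertical, log scale). The solid line marks equal levels and the dashed lines 2-fold; Phgr1, Gsdmc2, Atp1b1 and Clu lie far above the upper line at low matched levels, and Krt14 and Mt2 lie below the lower one.

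Phgr1, which encodes a small proline, histidine and glycine rich protein known from intestinal epithelium, had the largest ratio. Its level was 243 CPM (205 to 285) in the uroplakin-positive cells and 4.37 CPM (2.83 to 6.46) in the matched cells, a log2 ratio of 5.79 (5.18 to 6.47). It was detected in 36 of 93 cells (38.7%) against 22 of 930 (2.37%). One cell held 44 of its 147 UMIs, and without that cell the log2 ratio was 5.32 (4.68 to 6.01). Clu, the secreted chaperone clusterin, stood at 682 CPM (618 to 751) against 26.2 (22.2 to 30.8), a log2 ratio of 4.70 (4.43 to 4.98). Its UMIs per uroplakin-positive cell ran from 0 through a median of 1 to 52, and it was detected in 62.4% of these cells against 9.78% of the matched cells. The matched cells ran from 0 to 14 UMIs, so that the groups overlapped at counts up to 14 and the higher counts were found in uroplakin-positive cells. Gsdmc2, a pore-forming gasdermin, stood at 137 CPM (109 to 170) against 5.60 (3.83 to 7.90), a log2 ratio of 4.61. It was seen in 18 cells only (19.4%). Its neighbours on chromosome 15, Gsdmc3 with 26 UMIs against 5 and Gsdmc4 with 9 against 0, are near-identical copies under the level filter, and the split of reads among the 3 is uncertain.

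Transcripts of the β subunits of the sodium-potassium pump differed in opposite directions. Atp1b1, the β1 subunit, stood at 97.4 CPM (74.1 to 126) against 10.2 (7.71 to 13.1), a log2 ratio of 3.26 (2.71 to 3.81), and was detected in 34 cells (36.6%) against 4.41% of the matched cells. Atp1b3, the β3 subunit, was lower, at 61.1 CPM (43.0 to 84.2) against 193 (182 to 205), a log2 ratio of -1.66. The transport list as a whole had 4 tested genes with 1 at least 2-fold higher and 0 lower, since Atp1b3 is not in it. Slc9a3r1, an apical scaffold protein, was at a log2 ratio of 0.75 and Aqp3, a water channel, at -0.41. The epithelial sodium channel genes Scnn1a, Scnn1b and Scnn1g had 1, 1 and 0 UMIs in the 93 cells, under the limit of 3 counts (4.95 CPM) that a count of 0 allows.

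Ltf, the antimicrobial iron carrier lactoferrin, stood at 418 CPM (368 to 472) against 58.4 (52.3 to 65.0), a log2 ratio of 2.84, in 41.9% of cells against 10.0%. In the list of secreted defence genes it was the 1 higher gene of 3 tested, with Wfdc2 at 0.06 and Lypd3 at -0.13 on the log2 scale. Pigr, the receptor that carries antibodies across epithelia, did not pass the filter. It had 14 UMIs in 10 of the 93 cells against 16 UMIs in 14 of the 930 matched cells, a higher level from few counts. Basp1, a membrane-attached signalling protein, stood at 201 CPM (167 to 241) against 35.7 (31.0 to 40.9), a log2 ratio of 2.50. Akr1b3, aldose reductase, stood at 591 CPM (531 to 655) against 120 (111 to 130), a log2 ratio of 2.30, and its relative Akr1b8, outside the naming rule and picked after its value was seen, at 452 against 107.

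Of the genes of the apical surface and its traffic, Psca, Mal and Upk3bl were at least 2-fold higher. Of 15 listed genes 9 were tested, 3 passed 2-fold in that direction and 0 in the other, and the median log2 ratio was 0.67 against 0.12 over all tested genes. Psca, a surface antigen of intermediate and superficial urothelium, was the most abundant of them at 9404 CPM (9162 to 9652) against 2420 (2379 to 2460), a log2 ratio of 1.96. The median uroplakin-positive cell held 43 Psca UMIs and the median matched cell 2. At least 10 Psca UMIs were found in 72 of 93 cells (77.4%) and in 272 of 930 matched cells (29.2%). Mal, a proteolipid of apical sorting, stood at 1420 CPM (1326 to 1518) against 315 (301 to 330), a log2 ratio of 2.17, with a median of 6 UMIs per cell against 0. Upk3bl, which encodes a uroplakin-like protein and lies next to Upk3b (chromosome 5, 136054492 to 136064326), was not part of the selection and stood at 117 CPM (91.5 to 148) against 32.2 (27.7 to 37.2), a log2 ratio of 1.86 (1.45 to 2.27). Ly6d, a surface protein of stratified epithelia, was present in 93 of 93 cells and had a log2 ratio of 0.67. Rab27b and Rab11a, small GTPases of the vesicles that deliver uroplakins, had log2 ratios of 0.84 (0.30 to 1.34) and 0.64 (0.44 to 0.84), whereas Rab8a was at 0.03. Under the filter, Vamp7 had 12 UMIs against 136 in the 930 matched cells and Vps33a 1 against 29. Snx31, a sorting nexin that binds uroplakins, had 1 UMI in each group, too few to compare.

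Simple keratins were on the higher side and Krt20 was not seen. Krt8 stood at 697 CPM (632 to 766) against 189 (178 to 201), a log2 ratio of 1.88 (1.71 to 2.04), in 86.0% of cells against 51.9%. Its partner Krt18 stood at 837 CPM (766 to 913) against 441 (424 to 459), a log2 ratio of 0.92. Krt7 and Krt19, already high in the matched cells, had smaller log2 ratios of 0.56 (0.47 to 0.64) and 0.36 (0.30 to 0.42), and against cells of the same cluster that of Krt19 was 0.09. Of the 4 tested simple keratins 1 was at least 2-fold higher and the median log2 ratio was 0.74. Krt20, the keratin of umbrella cells, had 0 UMIs in the 93 cells, where the limit of 3 counts is 4.95 CPM, and 8 UMIs over all kept P cells.

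Tight junction genes followed the simple keratins. Of 14 listed genes 6 were tested, 3 were at least 2-fold higher, 0 were lower and the median log2 ratio was 0.87. Cldn7 stood at 304 CPM (261 to 351) against 139 (129 to 149), a log2 ratio of 1.13. Cldn4 stood at 282 CPM (242 to 328) against 135 (125 to 144), a log2 ratio of 1.07, with 20.5% of its UMIs in 1 cell, and Tjp3, the scaffold protein ZO-3, had a log2 ratio of 1.06 (0.57 to 1.52). Against cells of the same cluster all 3 were under 2-fold, at 0.82 for Cldn7, 0.81 for Cldn4 and 0.89 for Tjp3, and without its richest cell Cldn4 was at 0.79 and Tjp3 at 0.95. Tjp1, the scaffold ZO-1, was at 0.68 (0.33 to 1.01). Cldn3 and Cldn23 did not reach the level filter but were counted at 43 UMIs against 94 and 42 against 111, log2 ratios of 2.11 (1.55 to 2.65) and 1.84 (1.29 to 2.36). Cldn8 had 3 UMIs against 58.

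Transcription factors known from urothelial differentiation differed unequally. Of 12 listed factors 7 were tested, 1 was at least 2-fold higher, 0 were lower, and their median log2 ratio was 0.10 beside 0.12 over all tested genes. Elf3, an epithelial ETS factor, stood at 484 CPM (430 to 542) against 230 (217 to 242), a log2 ratio of 1.08, which was 0.83 within the cluster. Foxa1 and Gata3, pioneer factors of luminal epithelia, had log2 ratios of 0.92 (0.40 to 1.40) and 0.73 (0.39 to 1.06). Pparg, the nuclear receptor that drives urothelial differentiation, was under the filter with 27 UMIs in 22 cells against 74 UMIs, a log2 ratio of 1.78 (1.09 to 2.44). Klf5, Foxq1, Klf4 and Ehf lay between -0.27 and 0.10. Fabp4, a classical Pparg target, had 9 UMIs in 5 of the 93 cells against 14 UMIs in 9 of the 930 matched cells, a higher level from few counts. Fabp5, the fatty acid binding protein of squamous epithelia and the 1 tested gene of the lipid list, was lower at 433 CPM against 801, a log2 ratio of -0.89 (-1.07 to -0.71).

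Of the basal genes Krt14, Col17a1 and Trp63 were at least 2-fold lower. Of 10 listed genes 8 were tested, 3 were at least 2-fold lower, 0 were higher and the median log2 ratio was -0.85. Against cells of the same cluster 1 of the 8 was at least 2-fold lower, namely Col17a1 at -1.17, and the median was -0.63. Krt14 stood at 466 CPM (413 to 523) against 1293 (1264 to 1323), a log2 ratio of -1.47 (-1.65 to -1.30). Against cells of the same cluster its log2 ratio was -0.60. Col17a1, the collagen of hemidesmosomes, stood at 52.8 CPM (36.1 to 74.6) against 173 (163 to 184), a log2 ratio of -1.71, and Trp63, the master factor of basal identity, had a log2 ratio of -1.15 (-1.71 to -0.64). Itga6, the laminin receptor subunit CD49f, was at -0.89 (-1.38 to -0.44). Krt5 was lower yet abundant, at 2197 CPM (2081 to 2318) against 3839 (3788 to 3890), a log2 ratio of -0.81 (-0.89 to -0.73). Krt15, Cd44 and Itgb1 lay at -0.07, -0.11 and 0.08.

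UMIs of the basal keratin Krt5 and of the luminal keratin Krt8 were often found under the same barcode, and the parts of doublets and free RNA in this were not tested. A Krt5 UMI was present in 83 of the 93 cells and in 924 of the 930 matched cells, and 72 cells (77.4%, 67.6 to 85.4%) held both Krt5 and Krt8 against 51.7% of the matched cells (48.5 to 55.0%). Krt8 UMIs were at least as many as Krt5 UMIs in 34 cells (36.6%, 26.8 to 47.2%) against 17 of 930 matched cells (1.83%, 1.07 to 2.91%). Of the 93 cells 10 had no Krt5 UMI (10.8%, 5.28 to 18.9%), against 6 of the 930 (0.645%, 0.237 to 1.40%).

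The tested cornified envelope genes, which mark squamous differentiation, were also higher. Of 18 listed genes 7 were tested, 4 were at least 2-fold higher and 0 were lower. Their median log2 ratio was 1.36 beside 0.12 over all tested genes. Listed genes under the filter went both ways, from few counts. Sprr2h had 5 UMIs against 143 in the matched cells and Lor 2 against 49, both lower levels. Sprr2a1 had 17 against 54, Sprr2d 34 against 36, Sprr3 6 against 34 and Cnfn 8 against 45, all higher levels. Sprr1a, a small proline-rich envelope precursor, stood at 2917 CPM against 890, a log2 ratio of 1.71 (1.63 to 1.79), in 82 of 93 cells. Sprr2f had a log2 ratio of 2.38 (2.20 to 2.56) but rested on 19 cells (20.4%), 1 of which held 119 of its 395 UMIs, and without that cell the log2 ratio was 1.88. Crnn, cornulin, was at 1.36 (1.15 to 1.58), Sbsn at 1.52 (1.04 to 1.98) with 34.6% of its UMIs in 1 cell, without which it was under 2-fold at 0.94 (0.37 to 1.48), and Ivl, involucrin, and Nccrp1 were at 0.69 and 0.73. Flg, filaggrin, was at 0.32 and, within the same cluster, at -0.01. Of the 4 tested squamous keratins 0 reached 2-fold and the median log2 ratio was 0.20. Krt13 was below equality at -0.60 (-0.75 to -0.45), Krt6a lay at 0.01, Krt6b at 0.39 (-0.05 to 0.80) and Krt4, the keratin of stratified non-cornified epithelia, at 0.94 (0.81 to 1.08). Of the 384 Krt13 UMIs 109 lay in 1 cell, without which its log2 ratio was -1.04 (-1.22 to -0.86).

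The remaining lower genes named by rank were of mixed function. Mt2, a metallothionein, stood at 29.7 CPM against 136 (127 to 146), a log2 ratio of -2.20 that was -1.29 within the cluster. Dapl1, a death-associated protein-like gene, stood at 85.8 CPM (64.1 to 113) against 292 (278 to 307), a log2 ratio of -1.77. Hspb1, a small heat shock protein, was at -1.04 (-1.19 to -0.89), Pitx1, a homeodomain factor, at -1.37 (-1.95 to -0.85), Tmem176a at -1.31 (-0.67 within the cluster) and Gja1, the gap junction protein connexin 43, at -1.14. Eef1g, a subunit of the translation elongation factor, was at -0.93 (-1.10 to -0.77), short of 2-fold. Ribosomal protein genes were lower as a group, with a median log2 ratio of -0.49 over 77 tested, 1 of them above 0, and 0 reached 2-fold.

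Proliferation genes were sparse. None of the 12 listed passed the filter, and their summed level was 139 CPM against 256. At least 2 UMIs over the 12 were found in 3 of 93 cells (3.23%, 0.670 to 9.14%) and in 94 of 930 matched cells (10.1%, 8.25 to 12.2%), and 70 of the 84 UMIs in the uroplakin-positive cells came from 2 cells. Notch1, the receptor of basal and intermediate cells, was lower at 62.7 CPM against 112, a log2 ratio of -0.84 (-1.35 to -0.36), and the target Hes1 was at -0.29, the 2 tested of 12 Notch genes. Of 5 genes of the Wnt ligand list Wnt4 was at 0.38 and Wls, the ligand carrier, at 0.02, while the other 3 did not pass the filter.

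Other lists held few genes past 2-fold. All 8 tested hypoxia genes of 10 lay above 0 with a median log2 ratio of 0.47 and 0 at 2-fold, led by Bnip3 at 0.86 (0.61 to 1.11), Egln3 at 0.77 (0.57 to 0.96) and Ankrd37 at 0.59 (0.23 to 0.93). The 3 tested genes of antigen presentation, H2-K1, B2m and H2-D1, lay at 0.70, 0.68 and 0.60, and Cd74, H2-Aa and H2-Ab1 of the second class were at 0 UMIs. Of 6 tested xenobiotic genes Gstm1 was at 0.83 (0.59 to 1.06) and the median log2 ratio was 0.15. Immediate early genes, a sign of handling stress, were mixed around a median of 0.04 over 11 tested, with Ier3 at 0.94, Zfp36 at 0.65, Dusp1 and Jund at 0.62, and Fos at -0.51 and Egr1 at -0.66. In the retinoid list Dhrs3 was at 0.76 (0.44 to 1.06) and Aldh1a3 at 0.67 (0.13 to 1.17). Of the Aldh1a3 UMIs 44.7% lay in 1 cell, and without that cell its log2 ratio was -0.13 (-0.85 to 0.51). None of 8 interferon genes passed the filter, with 55 UMIs in all.

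Markers of other cell types were at or near 0. Leukocyte and erythroid lists had 0 UMIs in the 93 cells, and 6 of 6 and 4 of 4 genes were at 0. Fibroblast markers had 1 UMI, with 5 of 6 genes at 0, as in the matched cells with 1 UMI. Endothelial markers had 3 UMIs against 23, with 3 of 5 genes at 0, and neuroendocrine markers had 1 against 1. Of the mesothelial list 4 of 5 genes, Wt1, Lrrn4, Gpm6a and Calb2, were at 0 in both groups, and the fifth, Msln, stood at 162 CPM (131 to 197) against 67.2 (60.6 to 74.2), a log2 ratio of 1.27 (0.93 to 1.59) that was 1.88 within the cluster. The 9 leading genes of the D library known from earlier results of these data held 1 UMI in the 93 cells and 10 in the matched cells.

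The cells varied among themselves in how many of the leading genes they showed. The 4 tested genes with the largest ratios, Phgr1, Clu, Gsdmc2 and Atp1b1, taken as a panel after their values had been seen, were all under 50 CPM in the matched cells and passed the filter only through the uroplakin-positive cells. Since they were chosen for these ratios, the panel is a description and supports nothing. It gave at least 1 UMI in 70 of 93 cells (75.3%) and in 145 of 930 matched cells (15.6%). At least 2 of the 4 were seen in 50 cells (53.8%, 43.1 to 64.2%) against 25 matched cells (2.69%, 1.75 to 3.94%). All 4 were seen in 5 uroplakin-positive cells and in 0 of the 930 matched cells, which by the limit of 3 counts allows a share of up to 0.323%. The panel was fuller at higher uroplakin counts: at least 2 of the 4 were found in 18 of the 45 cells with 2 uroplakin UMIs (40.0%, 25.7 to 55.7%), in 17 of the 30 with 3 or 4 (56.7%), in 8 of the 11 with 5 or 6 (72.7%) and in 7 of the 7 with 10 or more. The median total was 4503 UMIs in the first of these groups and 7040 in the last, and the part of depth in this order was not tested. The cell with 16 uroplakin UMIs held 31 UMIs of Clu, 83 of Psca, 15 of Krt8, 2 of Krt5 and 0 of Krt14 in a total of 4744, and the next held 44 of Phgr1 and 49 of Krt8 in 14925.

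Cells with a single uroplakin UMI, just outside the selection, showed most of these directions at smaller ratios. The 210 such cells were set against 2100 depth-matched uroplakin-free cells of their own. Clu had a log2 ratio of 2.01 (1.66 to 2.35) with 1 UMI, 3.30 (2.78 to 3.81) with exactly 2 and 5.25 (4.91 to 5.60) with 3 or more. Krt8 went through 0.89 (0.72 to 1.06), 1.12 (0.80 to 1.43) and 2.34 (2.14 to 2.53). Krt5 went through -0.34 (-0.40 to -0.29), -0.47 (-0.58 to -0.36) and -1.13 (-1.25 to -1.01). Psca, in contrast, was at 1.10 with 1 UMI and at 1.90 and 1.78 with 2 and with 3 or more. Sprr2f was lower with 1 UMI, at -0.64 (-1.03 to -0.27), though detected in 5.24% of these cells against 4.38% of their matched cells. With exactly 2 it was at 1.03, or at -0.11 (-0.60 to 0.34) without its richest cell. With 3 or more it was at 2.78 in 13 cells with a UMI, or at 2.07 (1.81 to 2.33) without the cell that held 119 of its 299 UMIs. Krt13 was at 0.15 (-0.03 to 0.32) with exactly 2 and at -1.88 (-2.20 to -1.59) with 3 or more, but 1 cell held 109 of the 291 UMIs of the former, and without it the log2 ratio was -0.43 (-0.66 to -0.21).

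**Figure D4:**
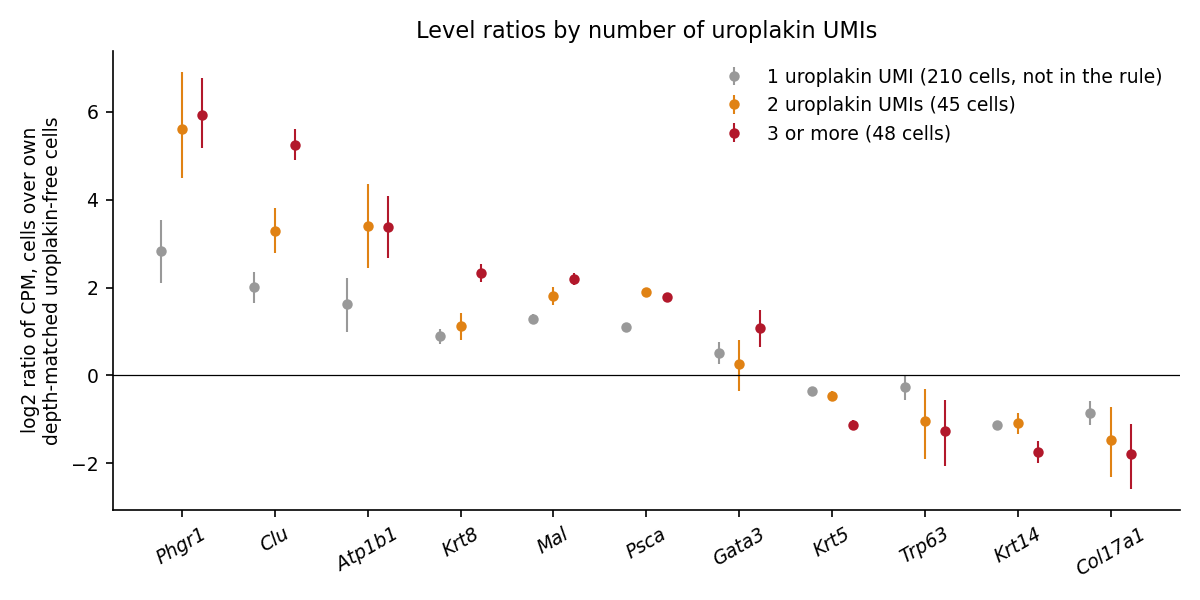
Log2 ratio of the summed level over depth-matched uroplakin-free cells (vertical axis) for 11 genes (horizontal axis) in P cells with 1, exactly 2, and 3 or more uroplakin UMIs. Points are ratios and bars exact conditional binomial 95% intervals; the ratios of Clu and Krt8 step up with the count and those of Krt5 step down, to -1.13.

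The shallower and the deeper of the 93 cells gave the same directions for Clu, Krt8, Psca and Krt5. In the 47 shallower cells, with a median of 3800 UMIs, the log2 ratio was 5.20 for Clu, 2.54 for Krt8, 2.13 for Psca and -1.11 for Krt5. In the 46 deeper cells, with a median of 8284 against 7937.5 in their matched cells, it was 4.45, 1.57, 1.88 and -0.71. Gata3 was at 1.39 (0.80 to 1.94) in the shallower cells and at 0.43 in the deeper, or 0.23 (-0.24 to 0.66) without its richest cell. Pparg, from few counts, was at 3.00 (1.95 to 4.02) with 16 UMIs in the shallower cells. In the deeper cells it was at 0.91 (-0.18 to 1.86) with 11 UMIs.

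Cells with Upk1b and cells with Upk1a alone differed in other genes. The 32 cells with Upk1a and Upk1b, the 47 with Upk1a but not Upk1b and the 13 with Upk1b but not Upk1a were compared, each with matched cells of its own, a split made after the values had been seen. Gsdmc2 had 53 UMIs in 12 of the 32 cells and 25 UMIs in 4 of the 13, log2 ratios of 6.03 (4.95 to 7.32) and 6.97 (4.96 to 10.1), but 5 UMIs in 2 of the 47, a log2 ratio of 1.21 (-0.56 to 2.65) that was -0.10 without the richer of these cells. Krt13 stood at 171 CPM in the cells with both and at 150 CPM in those with Upk1b alone, but at 1074 CPM in those with Upk1a alone, where the matched level was 1064 CPM. Of the last group 1 cell held 109 of 336 Krt13 UMIs, and without it the level was 769.6 CPM, still above the others. Msln had log2 ratios of 1.98 (1.51 to 2.43), 1.86 (0.94 to 2.72) and 0.37 (-0.31 to 0.99) in the same order of both, Upk1b alone and Upk1a alone. Phgr1 did not separate the groups in this way, with log2 ratios of 5.66, 6.59 and 5.11. Those of Psca were 1.57, 1.97 and 1.99, but 1 of the 13 cells with Upk1b alone held 326 of their 565 Psca UMIs. Without the richest cell of each group the Psca ratios were 1.40 (1.32 to 1.48), 0.92 (0.72 to 1.12) and 1.95 (1.89 to 2.01), lower in both groups with Upk1b.

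Clusters made without the 5 uroplakins placed nearly all of the cells together. Of the 4 clusters of kept P cells, cluster 1 held 87 of the 93 cells (93.5%, 86.5 to 97.6%), 160 of the 210 cells with 1 uroplakin UMI (76.2%) and 587 of the 930 matched cells (63.1%, 59.9 to 66.2%). It contained 37.8% of all kept cells and was led by Sprr2f, Psca, Nccrp1, Flg, Arg1 and Mal. The rule was met by 87 of its 2574 cells (3.38%, 2.72 to 4.15%) at a median depth of 4230.5 UMIs. In cluster 0, which is led by Htra1, Col18a1, Cdh13 and Krt17 and has Krt14 and Itgb4 among its first genes, it was met by 2 of 2578 cells (0.0776%, 0.00940 to 0.280%) at a median of 2841.5 UMIs. With every cell thinned to 2100 UMIs the shares were 39 of 2556 cells (1.53%, 1.09 to 2.08%) and 1 of 2451 (0.0408%, 0.00103 to 0.227%), so that the difference was present at equal depth. Cluster 0 is the nearest here to cells that should lack uroplakins. At least 1 uroplakin UMI was found in 1.28% of its cells (0.883 to 1.79%) against 9.60% in cluster 1 (8.49 to 10.8%), and the part of free RNA in either share was not tested. Within cluster 1 the share was 1.98% in the 858 shallowest cells and 5.59% in the 858 deepest.

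**Figure D5:**
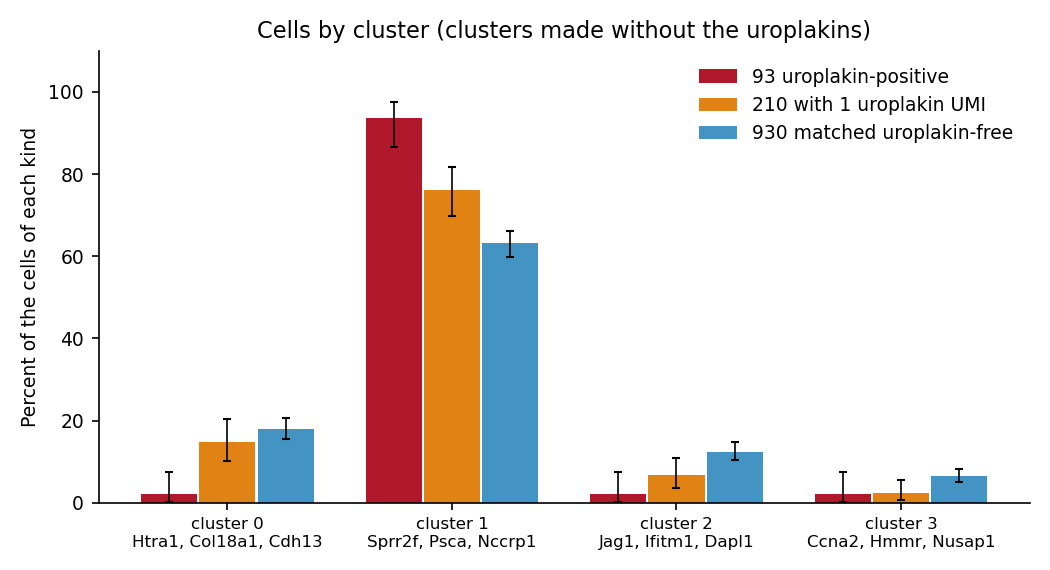
Percent of the cells of each kind (vertical axis) that fell in each of 4 clusters of the P library (horizontal axis, with the first leading genes), for the 93 uroplakin-positive cells, the 210 with 1 uroplakin UMI and the 930 matched uroplakin-free cells. Bars are shares and error bars exact binomial 95% intervals; in cluster 1 the shares are 93.5%, 76.2% and 63.1%.

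The 6 cells outside cluster 1 looked unlike the others. They lay 2 each in clusters 0, 2 and 3, and 5 of the 6 had exactly 2 uroplakin UMIs. Those 5 held 0 or 1 UMI of Psca and 13 to 24 of Krt5, and the sixth, with 4 uroplakin UMIs and 15281 UMIs in total, held 41 of Krt5 and 42 of Krt14.

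Compared with uroplakin-free cells of their own cluster, the uroplakin-positive cells again differed in few genes. Of 2090 tested genes 54 were at least 2-fold higher (2.58%) and 14 lower (0.67%). Of these, 53 higher and 10 lower genes were shared with the comparison across clusters. The log2 ratio was 5.34 for Phgr1, 4.45 for Clu, 5.21 for Gsdmc2, 2.64 for Atp1b1, 1.81 for Mal, 1.67 for Krt8 and 1.60 for Psca. Apical genes had 3 of 9 tested at least 2-fold higher, simple keratins 1 of 4, cornified envelope genes 3 of 7 and tight junction genes 0 of 6. Basal genes had 1 of 8 tested at least 2-fold lower, against 3 of 8 across clusters, with a median log2 ratio of -0.63. Of the 7 tested transcription factors 0 reached 2-fold, and their median log2 ratio was -0.007. The median log2 ratio was 0.46 for the apical genes, 0.65 for the simple keratins and 0.64 for the tight junction genes, beside 0.11 over all tested genes.

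The leading genes were not exclusive to the selected cells. Phgr1 was detected in 114 kept P cells, of which 48 held a uroplakin UMI (42.1%, 32.9 to 51.7%) against 83 of 1140 depth-matched cells without Phgr1 (7.28%, 5.84 to 8.95%). Clu was detected in 492 cells, of which 109 held a uroplakin UMI (22.2%, 18.6 to 26.1%) against 3.37% of 4920 matched cells. For Atp1b1 the shares were 28.3% of 212 cells against 5.90%, and for Gsdmc2 24.6% of 134 against 6.57%. Of the 31 kept P cells with 3 or 4 of these genes, 25 held at least 1 uroplakin UMI (80.6%, 62.5 to 92.5%), but 21 of the 31 were the selected cells themselves, from which the panel was chosen.

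The D cells that met the same rule were set against uroplakin-free D cells, 1 each within 25% of total UMIs. Only 1730 of the 2181 found a partner, and the balance was imperfect, with medians of 3571.5 and 2850.5 UMIs. Of 2671 tested genes 87 were at least 2-fold higher (3.26%) and 85 lower (3.18%). Of 1903 genes tested in both libraries, 58 were higher in the P cells and 58 in the D cells, and 28 were in both sets, 48.3% of each. In the lower direction 16 and 32 genes were called and 6 were shared. Mal had log2 ratios of 2.17 in P and 2.27 in D, Psca 1.96 and 2.50, Krt8 1.88 and 1.64, Akr1b3 2.30 and 2.83, and Krt5 -0.81 and -0.76, close to each other in size. Clu was present outside uroplakin-positive cells in D, at 636 CPM against 1911 CPM within them, so that its log2 ratio was 1.59 there. Phgr1 stood at 84.3 CPM against 6.43 in D, under the filter. Krt14 and Gja1 were lower by more in D, with log2 ratios of -2.97 and -3.17. Krt18 and Gstm1 were higher by more, at 2.28 and 2.36. Msln went opposite ways, with a log2 ratio of 1.27 in P and of -1.09 in D, the 1 gene called higher in P and lower in D, and Upk3bl, at 1.86 in P, was at -0.87 (-1.06 to -0.69) in D, where it stood at 57.8 CPM against 106. The cornified genes Sprr2f, Crnn and Nccrp1, at 314 to 652 CPM in the P cells, were under 3 CPM in the D cells, and Flg had 0 UMIs there.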

How the data were processed

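Per the submitters' processing notes and the study's methods, the authors made the deposited files with bcl2fastq 2.19.0 and Cell Ranger 3.0.2 against GRCm38. The deposited values are raw counts of UMIs per gene and barcode, 1 matrix per library, which the authors did not normalize. P held 8194 barcodes and 28921755 UMIs and D 6975 and 22949953. The cells, the gene lists and the 4-gene panel were chosen with earlier results of these data known.

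Levels are UMIs summed over cells per 1000000 summed UMIs of all genes (CPM), with exact Poisson intervals. Ratios have exact conditional binomial and shares exact binomial (Clopper-Pearson) intervals, all at 95%. A group with 0 counts was set to a floor of 3 counts. Genes were tested for a 2-fold difference when the mean CPM of both groups was at least 50, and no p-value was computed because each condition was 1 library. Matched cells were the nearest in total UMIs, each used once. Genes were named as the 10 highest and 10 lowest by the bound of the ratio's interval nearest to equality, plus tested list members at least 1.5-fold different with an interval that left out equality and list members that define a cell type. The other genes named were chosen after their values were seen.

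P cells were clustered in Seurat 5.3.0 (R 4.3.3) without the 5 uroplakins, on 2000 variable features, 25 components and a resolution of 0.2. Scrublet was run in scanpy 1.11.5. Other computations used Python 3.11.15, numpy 2.4.6, scipy 1.17.1 and pandas 2.3.3, and the ratio code was tested on simulated counts. Of 31053 gene identifiers, 30934 were placed on GRCm38. Alternatives covered the cell filter, the uroplakin minimum, the matching, the level filter, the scaling, the clustering resolution and left-out cells. One gene of the transport list is not reported here.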

Additional observations from a re-analysis of the deposited data

Results flagged for a closer look

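Barcodes that the quality filter left out also held uroplakins. Of the 1376 left-out barcodes of P, 12 had at least 2 uroplakin UMIs (0.872%, 0.451 to 1.52%), against 1.36% of the kept cells. Over the mitochondrial limit were 10 of the 12, and 3 had 800 genes or fewer. They held 51 of the 69 uroplakin UMIs of the left-out barcodes. Clu stood at 868 CPM (626 to 1174) in them, with a UMI in 7 of the 12, Krt8 at 724 CPM (504 to 1006) and Psca at 4569 CPM (3986 to 5212). Phgr1 had 3 UMIs. They enter no comparison above, and whether they are damaged cells of the same kind was not tested.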

How the results depend on the processing

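The share of kept P cells in the selection was 4.44% with at least 1 uroplakin UMI, 0.704% with at least 3, 0.601% with at least 2 different uroplakin genes and 0.618% with cells thinned to 2100 UMIs. In D it was 58.2% with at least 1 UMI, 35.9% with at least 3 and 46.7% with a stricter filter on genes and mitochondrial UMIs. At a clustering resolution of 0.4, 79.6% of the 93 cells shared a cluster. The number of genes at least 2-fold higher was 150 with at least 3 uroplakin UMIs, 234 and 43 at a minimum of 20 and 100 CPM, 54 within the cluster and 135 with the mean of each cell's CPM. The number at least 2-fold lower was 37 with at least 3 UMIs, 31 with at least 2 uroplakin genes, 86 and 10 at a minimum of 20 and 100 CPM, 92 with mitochondrial and ribosomal protein genes out of the totals, 37 with median-ratio scaling, 36 with the mean of each cell's CPM, 36 without the 6% of cells with the highest Scrublet scores and 29 without the 10% of the 93 cells with the most UMIs. The causes were not tested, except that a lower level minimum tests more genes. Over 62 named genes and all alternatives, 831 of 965 ratios lay within the counting interval of the reported ratio. That count overstates stability, since the minimums of 20 and 100 CPM and the removal of barcodes shared with D cannot move a ratio. Of the 965 ratios 1 changed sign, that of Aldh1a3, from 0.67 to -0.13 without the cell with the most of its UMIs. Without that cell of each gene, a choice made after seeing the data, Cldn4, Tjp3 and Sbsn were under 2-fold, 3 of the 62. By the same removal Krt13, Fabp5 and Itga6 came to at least 2-fold lower, at -1.04, -1.32 and -1.12. Removal of Scrublet's own calls was not run, since it called 0 cells, and the use of its highest scores was chosen after seeing the data. No paired analysis was possible because each condition was 1 library. A gene at 50 CPM in the 93 cells rests on about 30 UMIs, so that depth limits the lower genes most.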
